A study of Homo sapiens with 6 samples.

Results

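The ligands of the tumour necrosis factor (TNF) superfamily were followed in HCT116 cells given an antisense oligonucleotide against SNORA67. The 10 members TNF, LTA, LTB, TNFSF9, TNFSF10 (TRAIL), TNFSF12, TNFSF13, TNFSF13B, TNFSF14 and TNFSF15 were taken by gene symbol from the 19655 genes of the deposited count table, and each of the 10 has an entry there. They are 10 of 18 ligand genes listed for the family. The members were selected on their counts in the ASO and NC libraries, so the difference between these groups is described for them and not tested. The study compared 3 libraries of cells transfected with the oligonucleotide (ASO, labelled SNORA67 knockdown) with 3 libraries of control cells (NC, labelled control). HCT116 is an established human colon cancer line, grown in both groups in DMEM with foetal bovine serum. SNORA67 is a small nucleolar RNA from an intron of EIF4A1, and the question addressed is how it acts in colorectal cancer cells. The labels do not say what the NC cells received, nor the sequence, dose or duration of the oligonucleotide. Whether replicates were separate cultures is not stated either, and p-values therefore cover the variation among these 6 libraries alone, which may be technical.

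TNF superfamily ligands are trimeric proteins, mostly made as membrane proteins and in part released by proteases, that bind receptors of the TNF receptor superfamily. Through adaptor proteins the receptors switch on NF-kB and MAP kinase signalling, and those with a death domain can start apoptosis through caspases. TNF and the lymphotoxins LTA and LTB are best known from leukocytes, where NF-kB drives their transcription, while TRAIL is known for killing tumour cells, colon cancer cells among them.

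Stretches before annotated transcript starts of the ligand genes are shown first, because NF-kB and AP-1 are the factors these genes are best known to answer to. Windows of 250 bases before each start (RefSeq, GRCh38.p14) were found for 9 members, with 14 windows in all. The first sequence is TNF, the most abundant in ASO, per kb of exons, of the members near or at 0 in NC, on the plus strand at chr6:31575315-31575564. The second is TNFSF10, the one member that was lower in ASO in all libraries, on the minus strand at chr3:172523508-172523680, where 173 bases lie outside annotated exons. Capitals would mark an exact match to the NF-kB consensus or to the AP-1 motif TGANTCA, and neither window held one. The NF-kB string searched was GGGRNWYYCC. There R is A or G, W is A or T, Y is C or T and N is any base. Sites that differ from these strings were not searched for, so a window without a match may still hold a site.
TNF: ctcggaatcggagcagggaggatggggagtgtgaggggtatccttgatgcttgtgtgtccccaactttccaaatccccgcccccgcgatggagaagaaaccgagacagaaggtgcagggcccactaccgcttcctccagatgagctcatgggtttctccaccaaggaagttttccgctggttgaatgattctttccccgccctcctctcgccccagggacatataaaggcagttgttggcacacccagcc
TNFSF10: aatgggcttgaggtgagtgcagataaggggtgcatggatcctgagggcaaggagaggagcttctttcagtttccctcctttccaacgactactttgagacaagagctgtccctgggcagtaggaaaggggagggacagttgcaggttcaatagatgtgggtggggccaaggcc
The NF-kB consensus, searched on both strands, matched in windows of 4 members, LTA, LTB, TNFSF13 and TNFSF14, and 5.21% of all 35116 windows hold it. The 4 are members with a match in any of up to 2 windows while the share is of windows, so they are not on one scale. LTA and TNFSF13 matched in 1 of their 2 windows. These 30-base sites are given with the match in capitals. They begin their match 103, 86, 141 and 191 bases before a start, at chr6:31572176-31572205 (plus strand), chr6:31582492-31582521 (minus), chr17:7558131-7558160 (plus) and chr19:6670332-6670361 (minus). The sites of LTA, TNFSF14 and TNFSF15 lie before internal starts, inside the gene spans given further on, and not upstream of the whole gene.
LTA: ctaagccctgGGGGCTTCCCcgggccccag
LTB: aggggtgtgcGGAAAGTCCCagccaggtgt
TNFSF13: tcctcctgcgGGGAAATCCCttcctggctg
TNFSF14: gggaaagctgGGGGCTCCCCactgcacttg
The AP-1 motif, which 6.57% of all windows hold, matched in windows of 2 members, 166 bases before the start of TNFSF14 (chr19:6670308-6670337, minus) and 120 bases before that of TNFSF15 (chr9:114792632-114792661, minus). The matches in each gene do not overlap, and a match is a description of letters, not a shown binding site.
TNFSF14: cacttgccaccTGAGTCAcattttcagaag
TNFSF15: actctttcttcTGAGTCAccctgtccttgg

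Levels are CPM (counts divided by the library's TMM-adjusted total and set to a common depth, TMM being the trimmed mean of M values), on column totals of 49136502 to 54905215 in ASO and 50728524 to 53715905 in NC. The deposited counts appear to hold about 4 counts for each sequenced fragment, so 12 counts (3 fragments) in a library were taken as the limit of detection, a mean of 0.228 CPM in NC. At that limit 8 members were detected in every ASO library and 4, TNFSF9, TNFSF10, TNFSF13 and TNFSF14, in every NC library. Of the 5 members under the limit in every NC library, 3 (TNF, LTA and LTB) reached it in every ASO library. Of all genes under the limit in NC, 12% did so. The label of a colon cancer line is only in part borne out by its markers. Of 20 colon epithelial markers 10 reached the limit in every ASO library and 7 in every NC library. Of 16 mesenchymal markers 14 did so in ASO and 14 in NC. The epithelial genes ESRP1 and TFF3 had 0 counts in every library, and CDH1 was at 1.81 ± 0.128 CPM in ASO and 1.06 ± 0.229 CPM in NC. The keratin gene KRT8 stood at 1166 ± 181 CPM in ASO and 1360 ± 94.3 CPM in NC (SD, n = 3 each), but the epithelial adhesion gene EPCAM was at 2.93 ± 0.51 and 4.37 ± 1.13 CPM and the intestinal factor CDX2 at 0.191 ± 0.117 and 0.311 ± 0.165 CPM. Of the 20 colon epithelial markers 12 were tested, and 3 were higher in ASO, 0 lower (edgeR), where 26.8% and 19.1% of all genes tested were. The 3 were LGALS4 at 18 ± 2.65 CPM in ASO and 0.0066 ± 0.0114 CPM in NC, VIL1 at 8.88 ± 6.97 CPM in ASO and 0.0674 ± 0.117 CPM in NC, and KRT19 at 1.66 ± 0.398 CPM in ASO and 0.0503 ± 0.0872 CPM in NC. These 3 were under the limit in every NC library and were tested only because of their ASO counts, so nothing is read from the count. KRT18 was at 738 ± 79.2 CPM in ASO and 712 ± 55.8 CPM in NC, and ELF3 at 53.3 ± 7.44 CPM in ASO and 69.2 ± 7.29 CPM in NC. Of 16 mesenchymal markers 14 were tested, and 5 were higher and 4 lower in ASO (edgeR), where 26.8% and 19.1% of all genes tested were. The collagen gene COL5A1, among the higher, was at 1280 ± 125 CPM in ASO and 612 ± 33.3 CPM in NC. PDGFRB, among the lower, was at 41 ± 3.99 CPM in ASO and 101 ± 8.09 CPM in NC. VIM was at 1290 ± 106 CPM in ASO and 1201 ± 82.2 CPM in NC, with groups that overlapped. The identity of the cells was not tested.

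TNF, LTA and LTB, next to each other in the major histocompatibility region of chromosome 6, were near or at 0 in NC and abundant in ASO. TNF (chromosome 6, 31575565 to 31578336, hg38), the inflammatory cytokine that gives the family its name, stood at 56.8, 49.3 and 59.5 CPM in the ASO libraries, against 0.151, 0.0919 and 0.099 CPM in the NC libraries. All 3 NC values lay under the limit, and the groups did not overlap. Summed over 3 libraries these are about 2122 fragments in ASO and 4 in NC, a ratio of 545 with a 95% exact conditional binomial interval of 213 to 2004. This interval and those after it cover counting error only. LTA (31572054 to 31574324), lymphotoxin alpha, a secreted relative of TNF that binds the TNF receptors, had 11.1, 7.54 and 10.6 CPM in ASO, against 0.0755, 0.0919 and 0 CPM in NC. Its ratio was 193 (interval 53 to 1598, from 2 apparent fragments in NC). LTB (31580555 to 31582427, minus strand), which anchors lymphotoxin alpha in the membrane and binds LTBR, had 9.16, 6.68 and 7.58 CPM in ASO, against 0.0755, 0 and 0 CPM in NC. A single apparent fragment in NC gave a ratio of 309 with an interval of 55.1 to 12263, and without that library, NC replicate 1, NC held 0 counts and the fitted log2 fold change was 11.66 in place of 8.14. For all 3 genes ASO replicate 2 was the lowest ASO library and still stood above every NC library. In bulk libraries such as these, fewer cells that express a gene and less RNA per cell cannot be told apart.

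**Figure D1:**
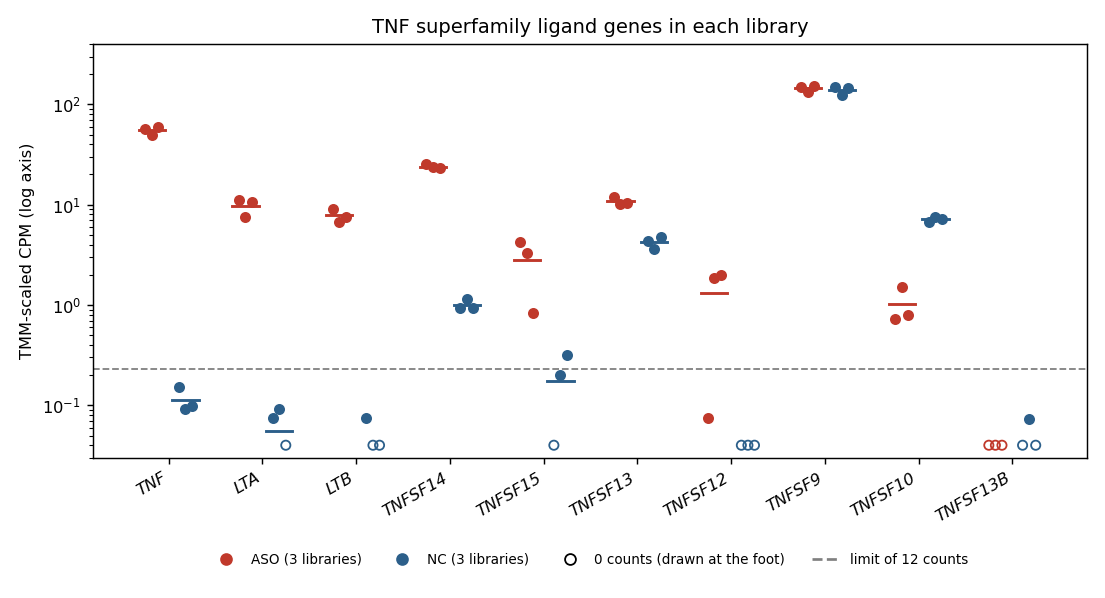
TMM-scaled CPM (log axis) of the 10 ligand genes in each of 3 ASO libraries (left of each pair) and 3 NC libraries (right), with bars at group means. Open circles are libraries at 0 counts and the dashed line is the limit of 12 counts. TNF, LTA, LTB and TNFSF14 stand apart in ASO, TNFSF9 overlaps between groups, and TNFSF10 is lower in ASO.

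Some genes on both sides of this trio were higher in ASO as well. LST1, a leukocyte-associated gene 3601 bases beyond LTB, stood at 6.26 ± 1.45 CPM in ASO and 0.033 ± 0.0572 CPM in NC (edgeR adjusted p = 0.000196). NCR3, which encodes an activating receptor of natural killer cells, was at 3.55 ± 1.01 CPM in ASO and had 0 counts in NC, at least 15.6-fold higher against the limit per library (edgeR adjusted p = 0.000202). LST1, with 5 counts summed over NC, and NCR3 passed the filter through ASO and could hardly be called lower. NFKBIL1, on the other side, rose less, at 52.1 ± 1.57 CPM in ASO and 34.1 ± 3.02 CPM in NC, a log2 fold change of 0.61 ± 0.11 (SE; edgeR adjusted p = 0.00308). ATP6V1G2, the next gene on that side, was not past the threshold, at 1.27 ± 0.364 CPM in ASO and 0.587 ± 0.15 CPM in NC (edgeR adjusted p = 0.067).

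On chromosome 19, 3 ligand genes lie in a row, and TNFSF14 was far apart between the groups while TNFSF9 and CD70 were level. TNFSF14 (6661253 to 6670588, minus strand), which encodes LIGHT, a ligand of the herpesvirus entry mediator and of LTBR, had 25.3, 23.5 and 23.2 CPM in ASO, against 0.944, 1.14 and 0.931 CPM in NC. Its level was thus 24 ± 1.15 CPM in ASO and 1 ± 0.117 CPM in NC, a log2 fold change of 4.58 (23.8-fold). TNFSF9 (6531026 to 6535924), a co-stimulatory ligand for activated T cells, had 149.9, 132 and 151 CPM in ASO, against 149, 125 and 144 CPM in NC. The groups overlapped, and the log2 fold change of 0.05 was smaller than the spread between replicates. CD70, which lies between these genes, is no member and was at 149 ± 19.2 CPM in ASO and 149 ± 15.1 CPM in NC (log2 fold change 0.00 ± 0.12, SE; edgeR adjusted p = 0.994). CD70 encodes the ligand of CD27, another co-stimulatory pair. The complement gene C3, 7115 bases beyond TNFSF14, was higher in ASO by 0.42 on the log2 scale (edgeR adjusted p = 0.0149, but edgeR adjusted p = 0.0607 without ASO replicate 3).

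TNFSF15 (chromosome 9, 114784652 to 114806039, minus strand) encodes TL1A, the ligand of death receptor TNFRSF25 and a cytokine studied in inflammatory bowel disease. It had 4.23, 3.3 and 0.84 CPM in ASO, against 0, 0.202 and 0.317 CPM in NC. ASO replicate 3 was the lowest of the ASO libraries and was still above every NC library. About 108 apparent fragments in ASO and 7 in NC gave a ratio of 15.9 (interval 7.44 to 40.4). TNFSF8, its neighbour on the chromosome and the ligand of TNFRSF8, was at 0.381 ± 0.182 CPM in ASO and 0.0252 ± 0.0436 CPM in NC.

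TNFSF10 (chromosome 3, 172505508 to 172523475, minus strand), the death ligand TRAIL, was the one member lower in ASO with groups that did not overlap. It had 0.726, 1.52 and 0.8 CPM in ASO, against 6.66, 7.55 and 7.27 CPM in NC. Its mean was 1.02 ± 0.439 CPM in ASO and 7.16 ± 0.454 CPM in NC, 7.04-fold lower in ASO (log2 fold change -2.82). ASO replicate 2 held nearly as much as the other ASO libraries together. Of the 4 nearest genes, 3 differed the other way and 1 the same way. FNDC3B stood at 272 ± 17.9 CPM in ASO and 118 ± 6.34 CPM in NC (edgeR adjusted p = 3.67e-05), and NCEH1 at 44.7 ± 4.7 CPM in ASO and 19.3 ± 0.53 CPM in NC (edgeR adjusted p = 0.000198). GHSR, the ghrelin receptor gene, was at 2.22 ± 0.393 CPM in ASO and had 0 counts in NC, at least 9.72-fold higher against the limit per library (edgeR adjusted p = 0.00034). GHSR passed the filter through ASO and could hardly be called lower. ECT2, a regulator of cytokinesis, fell like TNFSF10, at 24.7 ± 4.31 CPM in ASO and 38.2 ± 4.24 CPM in NC (log2 fold change -0.63; edgeR adjusted p = 0.0141, but edgeR adjusted p = 0.058 without NC replicate 2).

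TNFSF12 and TNFSF13 lie in tandem on the plus strand of chromosome 17, upstream of SENP3 and EIF4A1, whose intron holds SNORA67. TNFSF12 (7548938 to 7557881) encodes TWEAK, the ligand of TNFRSF12A, and had 4, 93 and 99 counts in ASO against 0 counts in each NC library. The first ASO library was under the limit of 12, and the mean of 1.31 ± 1.07 CPM in ASO was at least 5.72-fold higher than the limit per library in NC. The joint model TNFSF12-TNFSF13 had 41 counts in ASO replicate 1 and 0 in each other library, so both entries together held 45, 93 and 99 counts in ASO. The labels do not say how reads were divided between these overlapping models. TNFSF13 (7558292 to 7561608), which encodes APRIL, a survival factor of plasma cells, had 12, 10.2 and 10.5 CPM in ASO, against 4.3, 3.64 and 4.79 CPM in NC. That is 2.56-fold (log2 fold change 1.36), and the lowest ASO library was above the highest NC library. SENP3, 266 bases beyond TNFSF13, was at 163 ± 6.19 CPM in ASO and 161 ± 6.24 CPM in NC (edgeR adjusted p = 0.895). The next gene, EIF4A1, was lower in ASO, at 617 ± 46.3 CPM against 1544 ± 55.3 CPM in NC (log2 fold change -1.32; edgeR adjusted p = 1.49e-05). Beyond EIF4A1, CD68, MPDU1 and SOX15 were higher in ASO, by 2.06, 0.41 and 3.65 on the log2 scale (edgeR adjusted p = 1.43e-05, 0.0135 and 3.49e-05). The call for MPDU1 ended without ASO replicate 3 or NC replicate 1 (edgeR adjusted p = 0.0613 and 0.0522). POLR2A, upstream of TNFSF12, was at 366 ± 34.3 CPM in ASO and 407 ± 36.8 CPM in NC (edgeR adjusted p = 0.252). TNFSF13B (chromosome 13, 108269629 to 108308484), the B cell survival factor BAFF, was not detectable at this depth, with 0 counts in each ASO library and 4 counts in a single NC library.

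**Figure D2:**
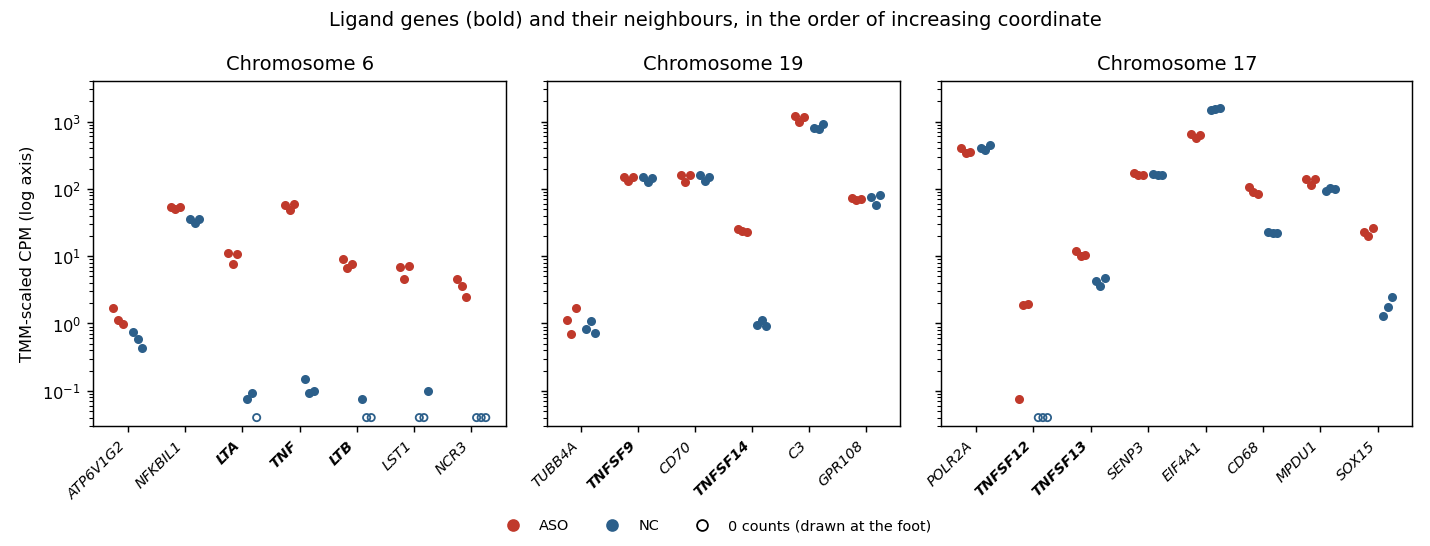
TMM-scaled CPM (log axis) of ligand genes (bold) and neighbouring genes on 3 chromosomes in the order of increasing coordinate, with 3 ASO points left and 3 NC points right for each gene; open circles are libraries at 0 counts, and the joint model TNFSF12-TNFSF13 is left out. LTA, TNF, LTB, LST1 and NCR3 stand apart together on chromosome 6, while TNFSF9 and CD70 overlap between groups beside TNFSF14.

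In the fit over all genes 8 members passed the filter on low counts, and TNFSF12 and TNFSF13B did not. Of the 8, 6 were past the threshold of adjusted p under 0.05 as higher in ASO, where 26.8% of all genes tested were, and 1 as lower, where 19.1% were. In either direction 46.0% of genes passed. Groups did not overlap for 6 of the 8 as higher and 1 as lower, against 31.6% and 25.9% of all genes tested, 57.6% in either direction. These counts come from the values that chose the members, and nothing is read from them. The 26 nearest genes that are no members, 2 on each side of each ligand gene, include 22 tested. Of these, 10 were higher, 2 lower and 10 not past the threshold (edgeR), where 26.8% of all genes tested were higher and 19.1% lower. Among the 10 higher, LST1, NCR3, GHSR and TNFSF8 passed the filter through ASO and could hardly be called lower. Nothing is read from this count.

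Levels of different ligands were compared per kilobase (kb) of merged exons (GENCODE 29). Summed over the 10 members they came to 141 ± 11.3 CPM per kb in ASO and 88 ± 7.71 CPM per kb in NC (SD, n = 3 each). TNFSF9 led in both groups, at 86.6 ± 6.56 CPM per kb in ASO and 83.7 ± 7.65 CPM per kb in NC. It made up 61 to 61.6% of the sum in the ASO libraries and 94.7 to 95.5% in the NC libraries. TNF came second in ASO at 32.9 ± 3.18 CPM per kb, with 22.9 to 24% of the sum, against 0.068 ± 0.0193 CPM per kb in NC. The next 4 in ASO, LTA at 5.6 ± 1.1, LTB at 5.09 ± 0.818, TNFSF14 at 5.03 ± 0.241 and TNFSF13 at 4.77 ± 0.426 CPM per kb, had overlapping ranges and cannot be put in order. TNFSF12, TNFSF15 and TNFSF10 followed at 0.695 ± 0.568, 0.354 ± 0.222 and 0.292 ± 0.126 CPM per kb, also overlapping, and the last pair change places when the longest transcript is taken as the length. In NC the second place fell to TNFSF10 at 2.06 ± 0.131 CPM per kb and TNFSF13 at 1.86 ± 0.255 CPM per kb, whose ranges overlapped. The order of these 2 is clearer with the longest transcript, at 3.67 ± 0.232 and 1.93 ± 0.264 CPM per kb. TNFSF14 came next in NC at 0.21 ± 0.0244 CPM per kb.

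**Figure D3:**
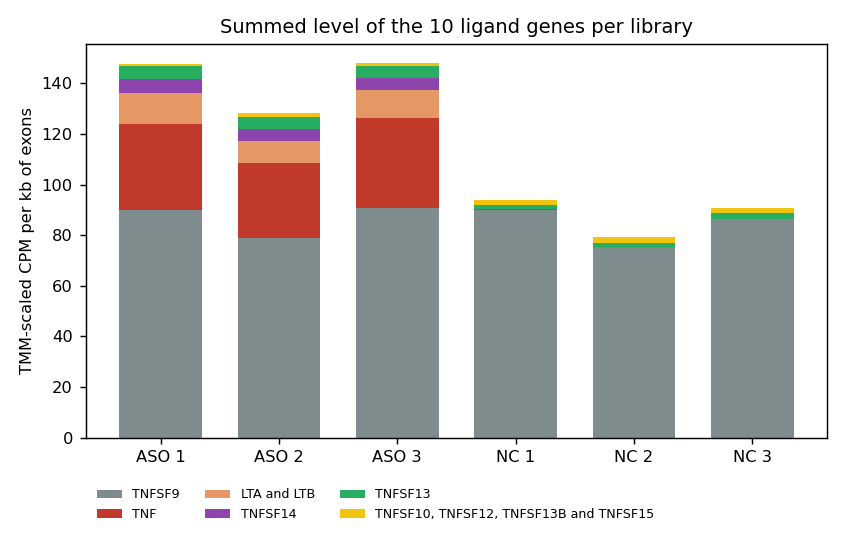
Summed level of the 10 ligand genes per library, in TMM-scaled CPM per kb of merged exons (axis from 0), stacked by gene, with 3 ASO libraries left and 3 NC libraries right. TNFSF9 is of like height in all 6 libraries, and TNF adds 22.9 to 24% of the sum in ASO.

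The genes most like each member were found by the Euclidean distance of log2 CPM, centred on each gene's mean, over the 6 libraries among 12467 genes at a mean of 1 CPM or more. These likenesses are descriptions, and all genes share the same 6 libraries. Nearest to TNF was the keratin gene KRT14 (distance 0.47), though its fitted log2 fold change was 12.37 beside 8.89 for TNF. The log2 CPM used here carried a prior count of 2, which narrows differences among values near 0. LTA had ABCG8 (0.57) and LTB had NANOS3 (0.30) and TDRD12 (0.35). TNFSF14 had FOXD4L1 (0.33) and EDN1, the gene of the vasoconstrictor endothelin (0.35). TNFSF10 had CEP162 (0.84) and KYAT3 (0.85) as its closest genes, which were lower in ASO by -2.27 and -2.63 on the log2 scale. TNFSF9 had AP1M1 (0.05) and ANXA8L1 (0.06), and TNFSF13 had CELSR3 (0.11) and SLC27A3 (0.14). TNFSF15, with its low ASO replicate 3, had no gene nearer than MGARP (1.09).

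Among the other 8 ligands of the family, 3 reached the limit in every ASO library and passed the filter on low counts. CD70, given above, did not differ beyond its spread. TNFSF4, the ligand of TNFRSF4, was at 0.446 ± 0.134 CPM in ASO and 0.152 ± 0.114 CPM in NC (edgeR adjusted p = 0.11). TNFSF8 passed the threshold (edgeR adjusted p = 0.0272) from 12, 17 and 29 counts in ASO and 4, 0 and 0 counts in NC. That call ended without ASO replicate 2 or 3 or NC replicate 2 or 3, where the edgeR adjusted p was 0.0507, 0.0994, 0.0883 and 0.0871. CD40LG and TNFSF11 had 0 counts in every library, and FASLG, TNFSF18 and EDA reached at most 20 counts in any library.

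The receptors were tested, since they did not serve to choose the members, though their list was drawn up with earlier results of these data known. Of 29 receptor genes, 23 were tested, and 15 were higher, 2 lower and 6 not past the threshold in edgeR, 73.9% past it against 46.0% of all genes. Their median log2 fold change was 1.02, or 0.91 with the 3 genes at 0 in NC set to their lower bound, beside 0.01 over all genes tested. Those 3, TNFRSF4, TNFRSF10C and EDAR, and TNFRSF18, with 12 counts summed over NC, passed the filter through ASO. They could hardly be called lower, and the share past the threshold includes them. The receptors of the trio on chromosome 6 did not pass in the main fit. TNFRSF1A, the widely expressed TNF receptor with a death domain, was at 209 ± 18.1 CPM in ASO and 219.7 ± 3.88 CPM in NC, a log2 fold change of -0.07 ± 0.09 (SE; edgeR adjusted p = 0.542). TNFRSF1B, the other TNF receptor, had 4 counts in a single ASO library and 0 elsewhere. LTBR, the lymphotoxin beta receptor, was at 174 ± 30.6 CPM in ASO and 209 ± 31.7 CPM in NC (edgeR adjusted p = 0.202). With a block for the replicate number LTBR passed as lower (log2 fold change -0.27, edgeR adjusted p = 0.0343).

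Receptors of TNFSF9, TNFSF12, TNFSF15 and TRAIL were higher in ASO. TNFRSF9, which binds TNFSF9, was at 28.5 ± 3.16 CPM in ASO and 2.18 ± 0.586 CPM in NC, a log2 fold change of 3.70 ± 0.23 (SE; edgeR adjusted p = 1.77e-05). TNFRSF12A, the TWEAK receptor, rose to 459 ± 56 CPM in ASO against 129 ± 8.53 CPM in NC (1.83 ± 0.11, SE; edgeR adjusted p = 1.47e-05). TNFRSF25, the death receptor bound by TL1A, was at 13.5 ± 4.22 CPM in ASO and 6.06 ± 1.28 CPM in NC (edgeR adjusted p = 0.0117). TNFRSF6B, a soluble decoy for LIGHT and TL1A, was at 9.03 ± 0.97 CPM in ASO and 3.42 ± 0.827 CPM in NC (edgeR adjusted p = 0.00206).

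Of the 4 membrane receptors of TRAIL, TNFRSF10A, TNFRSF10B and TNFRSF10D were higher from counts well above the limit, while TRAIL itself was lower. The death receptor TNFRSF10B stood at 310.2 ± 6.45 CPM in ASO and 144 ± 1.62 CPM in NC (log2 fold change 1.10 ± 0.07, SE; edgeR adjusted p = 2e-05). The death receptor TNFRSF10A was at 53.3 ± 2.2 CPM in ASO and 34.2 ± 1.08 CPM in NC (0.64 ± 0.10; edgeR adjusted p = 0.00154). The decoy TNFRSF10D, whose death domain is truncated, was at 66.8 ± 4.73 CPM in ASO and 35.5 ± 1.32 CPM in NC (0.91 ± 0.10; edgeR adjusted p = 0.00035). The decoy TNFRSF10C had 17, 10 and 27 counts in ASO and 0 in NC, at least 1.54-fold higher against the limit per library (edgeR adjusted p = 0.00858). TNFRSF11B, the soluble decoy osteoprotegerin, was at 15.4 ± 0.655 CPM in ASO and 17 ± 1.29 CPM in NC (edgeR adjusted p = 0.421).

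Among the other receptors for APRIL, BAFF and LIGHT, TNFRSF13B, TNFRSF17 and TNFRSF14 were low, while LTBR, which also binds LIGHT and is given above, was not. TNFRSF13B had 0 counts in all 6 libraries and TNFRSF17 had 4 counts in a single NC library. TNFRSF13C, the BAFF receptor, was at 15.2 ± 1.12 CPM in ASO and 9.72 ± 1.25 CPM in NC (edgeR adjusted p = 0.013, but edgeR adjusted p = 0.0522 without ASO replicate 3 and 0.0547 without NC replicate 1). TNFRSF14, the herpesvirus entry mediator, was at 0.811 ± 0.0965 CPM in ASO and 0.519 ± 0.107 CPM in NC (edgeR adjusted p = 0.257). Outside these pairs, TNFRSF21 rose by 1.05 on the log2 scale (edgeR adjusted p = 0.000186). TNFRSF4, named with TNFRSF18 and FAS after its values were seen, had 100, 98 and 101 counts in ASO and 0 in NC, at least 8.54-fold higher against the limit per library (edgeR adjusted p = 0.000353). TNFRSF18 was at 2.51 ± 0.634 CPM in ASO and 0.0767 ± 0.0755 CPM in NC (edgeR adjusted p = 0.00155). The death receptor FAS was at 17.6 ± 1.91 CPM in ASO and 23.2 ± 2.14 CPM in NC and missed the threshold (edgeR adjusted p = 0.0526), which it passed with DESeq2 (adjusted p = 0.0435) and limma-voom (adjusted p = 0.0468). The 2 receptors that fell were EDA2R and TNFRSF11A, by 0.55 and 0.65 on the log2 scale (edgeR adjusted p = 0.0293 and 0.0358). Without ASO replicate 1 or 2 or NC replicate 2 both calls ended (edgeR adjusted p = 0.0737, 0.0534 and 0.104 for EDA2R and 0.0834, 0.067 and 0.123 for TNFRSF11A). EDA2R was also lost without NC replicate 3 (edgeR adjusted p = 0.073), and TNFRSF11A without ASO replicate 3 (edgeR adjusted p = 0.0694) and NC replicate 1 (edgeR adjusted p = 0.0951).

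**Figure D4:**
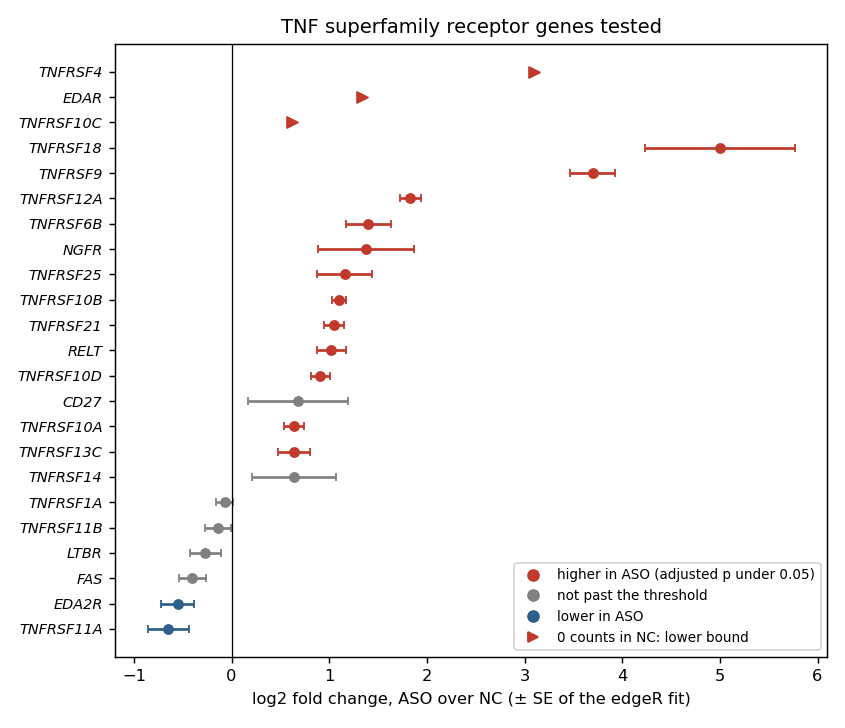
Log2 fold change, ASO over NC, of the 23 receptor genes tested, with bars of 1 SE from the edgeR fit; arrowheads are lower bounds for genes at 0 counts in NC. Red marks the 15 higher, blue the 2 lower and grey the 6 not past the threshold, TNFRSF1A among them at -0.07.

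Of 36 genes that act just below the receptors 35 were tested, and 12 were higher, 1 lower and 22 not past the threshold (edgeR), 37.1% past it against 46.0% of all genes, with a median log2 fold change of 0.25. TNFAIP3, which removes ubiquitin from receptor complexes, was at 579 ± 18.6 CPM in ASO and 3.91 ± 0.487 CPM in NC (edgeR adjusted p = 2.1e-07). CFLAR, the caspase inhibitor of death receptor complexes, was at 79.3 ± 0.896 CPM in ASO and 13.1 ± 1.77 CPM in NC (edgeR adjusted p = 5.78e-06). NFKB2 and the kinase gene MAP3K14 of the non-canonical NF-kB branch, which LTBR feeds, rose by 2.56 and 2.51 on the log2 scale (edgeR adjusted p = 2.65e-06 and 1.73e-05). RELB of the same branch rose by 3.43 (edgeR adjusted p = 2.86e-05), the adaptor gene TRAF1 by 3.96 (edgeR adjusted p = 0.000147) and BIRC3 by 2.19 (edgeR adjusted p = 0.00166), these 3 named after their values were seen. CHUK, TRAF3 and BIRC2, which also act in the non-canonical branch and were likewise named late, did not pass (edgeR adjusted p = 0.208, 0.109 and 0.0641). ASO replicate 3, lowest for TNFSF15, had 1426 TRAF1 counts beside 4261 and 3369 in the other ASO libraries. TAB1, an adaptor of the kinase TAK1, was the one that fell, by 0.40 (edgeR adjusted p = 0.0188, but edgeR adjusted p = 0.0555 without NC replicate 1).

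Of 12 genes for the release and processing of ligands, 3 were higher, 1 lower and 8 not past the threshold (edgeR), 33.3% past it against 46.0% of all genes, with a median of 0.23. ADAM17, the protease that sheds TNF, named after its values were seen, was at 24.9 ± 7.21 CPM in ASO and 34.9 ± 3.58 CPM in NC (edgeR adjusted p = 0.0837, but edgeR adjusted p = 0.00396 without ASO replicate 2). FURIN, which cleaves the APRIL and TWEAK precursors, was at 402 ± 64.5 CPM in ASO and 231 ± 18.5 CPM in NC (edgeR adjusted p = 0.00186). ADAM8 rose by 3.38 on the log2 scale (edgeR adjusted p = 7.83e-06). RHBDF1, which assists ADAM17, was higher by 0.49 (edgeR adjusted p = 0.0411) and ADAM10 lower by 0.66 (edgeR adjusted p = 0.0264). Both calls ended without ASO replicate 1 (edgeR adjusted p = 0.109 and 0.0724), ASO replicate 3 (0.136 and 0.0954), NC replicate 1 (0.0681 and 0.0687) or NC replicate 2 (0.0924 and 0.101). The list's count of 4 was 2 without ASO replicate 1, ASO replicate 3 or NC replicate 1, and 7 without ASO replicate 2.

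Factors that act on AU-rich transcripts, a class that includes TNF mRNA, were 6 higher, 3 lower and 6 not past the threshold of 15 (edgeR), 60% past it against 46.0% of all genes, with a median of 0.22. ZFP36L1 and ZFP36L2, which speed the decay of such transcripts, rose by 1.49 and 1.45 on the log2 scale (edgeR adjusted p = 2.21e-05 and 0.000108). The ribonuclease genes ZC3H12A and ZC3H12C rose by 1.97 and 2.01 (edgeR adjusted p = 2.26e-05 and 0.000106). TIA1, which binds TNF mRNA and restrains its translation, fell by 0.70 (edgeR adjusted p = 0.00255). CNOT1, the scaffold of the deadenylase complex, and HNRNPD, an AU-rich element binding protein, fell by 0.32 and 0.55 (edgeR adjusted p = 0.0259 and 0.0298). Both calls ended without ASO replicate 1 (edgeR adjusted p = 0.0769 and 0.0831), ASO replicate 3 (0.0962 and 0.0909) or NC replicate 2 (0.0889 and 0.112), CNOT1 also without NC replicate 3 (0.0776) and HNRNPD without NC replicate 1 (0.0899). ZFP36, the best known of these factors for TNF and named after its values were seen, had 7795, 5793 and 1938 counts in ASO and 2322, 1967 and 2117 in NC. The groups overlapped because of ASO replicate 3, and the call (edgeR adjusted p = 0.0332) ended without each library other than that one, with edgeR adjusted p values of 0.0751 to 0.144, and with limma-voom (adjusted p = 0.122).

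Some genes of leukocytes, the usual source of TNF and the lymphotoxins, were higher in ASO as well, as were the colon epithelial markers LGALS4, VIL1 and KRT19 given above. Of 22 leukocyte markers, 10 reached the limit in every ASO library and 4 in every NC library. Their summed level ran from 24.3 to 29.1 CPM in ASO and from 3.82 to 4.61 CPM in NC. Of the 11 tested, 9 were higher in ASO (edgeR), where 26.8% of all genes were. Among the 9, CD163, AIF1 and FCER1G had 0 counts in NC, and CD4 and CD79A had 5 and 17 summed over the NC libraries. Such genes passed the filter through ASO and could hardly be called lower, so nothing is read from this count. ITGAM was at 8.11 ± 1.2 CPM in ASO and 0.394 ± 0.264 CPM in NC. CD79A was at 7.04 ± 1.29 CPM in ASO and 0.109 ± 0.0439 CPM in NC. The common leukocyte antigen PTPRC, the T cell genes CD3D, CD3E and CD2, and FCGR3A had 0 counts in every library. TYROBP had at most 3 counts in any library, while LYZ had 8, 25 and 41 counts in ASO and 0 in each NC library. With PTPRC at 0 throughout, the defining marker of leukocytes was not seen in either group, and what the other markers contribute to the ligand values was not tested.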

How the data were processed

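Total RNA of 6 libraries was sequenced. Per the submitters' processing notes the tools were StringTie, STAR, DESeq2 and FastQC on hg38, with no versions or roles. The authors deposited estimated counts per gene, not scaled to depth, with annotation release, strand setting and handling of shared reads not given in the sources used here. Values were whole numbers, so rounding changed nothing. Genes with any counts most often held exactly 4, in all 6 libraries, and taking 4 counts as 1 fragment puts the apparent depth at 12.28 to 13.73 M fragments.

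The fit used edgeR 4.0.16 under R 4.3.3 (filterByExpr at min.count 10 and min.total.count 15, TMM, robust quasi-likelihood test, no replicate block). The filter left 14062 genes, and p-values were adjusted over all of them by the Benjamini-Hochberg method at 0.05. Alternatives used DESeq2 1.42.0 and limma 3.58.1 (limma-voom). The method was tested on simulated data. No 2 libraries of a group agreed within sampling noise.

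The members, gene lists, pairs and tests were chosen with earlier results of these data known. Genes named are the members, other ligands at 12 counts in a group, paired receptors, up to 4 genes per direction with the smallest p in each other list, neighbours, and the 2 genes nearest in pattern, some of which are not reported here. Others are marked as named after their values were seen.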

Additional observations from a re-analysis of the deposited data

How the results depend on the processing

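The count of genes past the threshold over the whole table stayed within 1.5 times under all 15 alternatives (other scalings, filters and tests, counts divided by 4, a replicate block and each library left out). The count of genes lower in ASO, 2692, was 1764 without ASO replicate 3 and 1755 without NC replicate 1. Also within 1.5 times were the counts for members, receptors, turnover factors and a set of the neighbours with 3 more genes of chromosome 17 (15 of 25 tested past the threshold). The neighbours without those 3 were not counted under the alternatives. The count of 1 among the other ligands became 0 in edgeR with no filter, with a replicate block (1 at an unadjusted p under 0.05 in both) and with counts divided by 4 (0 at an unadjusted p, with 1 gene tested), and ran from 0 to 1 with each library left out. It was 1 in DESeq2 and limma-voom. With the replicate block, receptor-proximal genes past the threshold numbered 20 (13 without it) and shedding genes 7 (4 without it), and shedding genes ran from 2 to 7 with each library left out. Same-numbered ASO and NC libraries deviated from their group means with correlations of 0.052, 0.188 and 0.015, and the value of 0.188 was the highest of any pair. Differently numbered pairs ran from -0.142 to 0.092, and ASO replicate 1 correlated best with NC replicate 3. Correlations this small cannot settle whether the numbers pair the libraries, and the main fit did not pair them. With the block 7418 genes of the whole table passed the threshold, and 6464 without it. CD70 changed sign around 0, at -0.02 with library size alone and with upper-quartile scaling, -0.01 with no filter, 0.00 with limma-voom and with the block, and -0.07 to 0.00 with libraries left out. SENP3 did so at 0.00 with library size alone and upper-quartile scaling and at -0.02 without ASO replicate 1 or NC replicate 3. Of 50 named genes past the threshold, 50 kept their direction and 37 stayed past it in every alternative that tested them. Tested members whose groups did not overlap kept their direction: TNFSF10 ran from -3.23 to -2.63, TNFSF14 from 4.51 to 4.69, TNFSF13 from 1.27 to 1.44 and TNFSF15 from 3.43 to 4.75 on the log2 scale. At about 4 counts per fragment, ratios for TNF, LTA and LTB rest on 4, 2 and 1 fragments in NC and are fixed only within wide intervals. The cause of these shifts was not tested.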
